A study of Homo sapiens with 12 samples.

Results

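The mRNA of 3 ERBB receptors, EGFR, ERBB2 and ERBB3, and of 2 of their feedback inhibitors, ERRFI1 and LRIG1, was followed in 3 human hepatocellular carcinoma (HCC) cell lines treated with an mTOR inhibitor, an SHP2 inhibitor or both. These 5 genes were chosen by name, and all 5 stand among the 11548 genes of the deposited table. Hep3B, MHCC97H and Huh7 cells, labelled WT, were either left untreated, treated with AZD8055 (100 nM, an inhibitor of the mTOR kinase), treated with compound #57 (an allosteric inhibitor of the phosphatase SHP2), or treated with AZD8055 and compound #57 together (100 nM and 5 µM), which is called the combination here. The dose of compound #57 alone is not given for the sequenced cells in the sources used here. MHCC97H cells were exposed for 24 h, the other lines for 48 h. Wherever MHCC97H differs from the others, the line and the time cannot be told apart. Each of the 12 conditions was 1 library from 1 culture, with no replicate within a cell line, and the untreated cells of a line serve as the control of all 3 treatments of that line. The libraries held between 10659951 and 15957251 reads.

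ERBB receptors are receptor tyrosine kinases that pair on the cell surface. EGFR binds ligands of the EGF family and signals through its own kinase. ERBB2 has no known ligand and is the preferred partner of the other receptors. ERBB3 binds neuregulins, has little kinase activity of its own and recruits PI3K when a partner phosphorylates it, which couples it to AKT and mTOR. SHP2, the product of PTPN11, carries the signal of most receptor tyrosine kinases towards RAS and ERK. ERRFI1, also known as MIG6, is a cytoplasmic protein that binds the kinase domains of ERBB receptors and blocks them, and it is known as a gene that growth factors induce. LRIG1 is a membrane protein with leucine-rich repeats that binds ERBB receptors and promotes their degradation. Inhibition of PI3K, AKT or mTOR is known to relieve feedback on receptor genes in several tumour types.

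The kinase regions of the receptors show how close the family members are and where ERBB3 departs. Below are the 36 coding bases around the catalytic loop in exon 21 of each receptor, read from hg38 on the plus strand, with the codon at the position of the catalytic aspartate in capitals.
EGFR (chr7:55191746-55191781): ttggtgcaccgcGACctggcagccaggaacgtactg
ERBB2 (chr17:39725076-39725111): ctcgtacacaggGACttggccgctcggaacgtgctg
ERBB3 (chr12:56097812-56097847): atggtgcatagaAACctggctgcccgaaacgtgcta
EGFR and ERBB2 share 26 of these 36 bases, EGFR and ERBB3 also share 26, and ERBB2 and ERBB3 share 25. The marked codon is the same in EGFR and ERBB2 and differs in ERBB3 by G13A, counted from 1 at the 5′ end of the printed stretch with the base of EGFR first.

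The promoters of both inhibitors, whose mRNA was lower in Hep3B with compound #57, alone or combined, than without it, are given as the 250 bases before the start site (RefSeq, GRCh38.p14, minus strand of the chromosome, printed 5′ to 3′), with GC box letters (GGGCGG or its reverse complement) in capitals.
ERRFI1 (chr1:8026310-8026559): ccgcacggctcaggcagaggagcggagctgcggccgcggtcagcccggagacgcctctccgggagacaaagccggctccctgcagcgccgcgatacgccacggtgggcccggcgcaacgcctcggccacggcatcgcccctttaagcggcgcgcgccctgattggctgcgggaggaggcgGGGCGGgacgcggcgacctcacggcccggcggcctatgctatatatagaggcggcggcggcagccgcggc
LRIG1 (chr3:66501023-66501272): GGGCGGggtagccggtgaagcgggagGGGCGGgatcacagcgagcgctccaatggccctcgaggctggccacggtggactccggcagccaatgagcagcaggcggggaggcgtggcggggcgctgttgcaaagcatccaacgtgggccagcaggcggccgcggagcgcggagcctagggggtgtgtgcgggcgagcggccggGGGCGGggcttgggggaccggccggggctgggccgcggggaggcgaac
The ERRFI1 window held 1 GC box and the LRIG1 window 3, while the EGFR window, which was also matched, held 2. A GC box stood in 42.639% of 35116 promoter windows of the same length. On both strands, none of these 3 windows held the letters of a forkhead site (GTAAACA, in 2.979% of all windows), an AP-1 site (TGACTCA, 4.203%), a CRE (TGACGTCA, 1.646%), an E-box (CACGTG, 6.345%) or an ETS site (CCGGAAG, 8.517%). No searched motif contains another. Promoters were matched for 3 of the 5 genes, and ERBB2 and ERBB3 were not among them.

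In the annotation (GENCODE release 44, hg38), EGFR lies on the plus strand of chromosome 7 (chr7:55019017-55211628, 28 exons, transcript of 9905 bases). ERBB2 lies on the plus strand of chromosome 17 (chr17:39687914-39730426, 27 exons, 4557 bases) and ERBB3 on the plus strand of chromosome 12 (chr12:56076799-56103505, 28 exons, 5615 bases). ERRFI1 lies on the minus strand of chromosome 1 (chr1:8004404-8026309, 4 exons, 3097 bases), and LRIG1 on the minus strand of chromosome 3 (chr3:66378797-66501263, 19 exons, 5363 bases). Some exonic bases lie within other genes. These are 2008 bases of ERBB3 within a protein-coding gene on the same strand, 3280 bases of LRIG1 within SLC25A26, 163 bases of ERBB2 within MIEN1 and 186 bases of EGFR within EGFR-AS1, the last 3 on the opposite strand. The library preparation is labelled as stranded, but whether the counting used strand is not given in the sources used here, so reads of these stretches are uncertain.

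The cell line labels were checked against 12 hepatocyte and HCC genes. In Hep3B and Huh7 all 12 were above 10 CPM on average (reads scaled to 1000000 per library), whereas 6 were in MHCC97H, where ALB ranged from 14.2 to 73.2 CPM, against at least 11964 in Hep3B and 2389 in Huh7. GPC3 stayed at or below 0.527 CPM in MHCC97H, while KRT8 and KRT18 were above 1380 there. The leukocyte genes PTPRC, CD14 and CD68 are not in the table. Of 3 endothelial genes only PECAM1 is in the table, at 28.5 to 54.2 CPM in MHCC97H and at most 5.58 in the other lines. The stromal genes COL1A1, COL1A2 and PDGFRB summed to between 141.0 and 212.0 CPM in Huh7, 22.3 to 50.5 in Hep3B and at most 2.4 in MHCC97H. The 3 biliary genes KRT19, SOX9 and EPCAM summed to 656.5 to 1240.2 CPM in Hep3B, 335.8 to 429.2 in Huh7 and 177.5 to 313.4 in MHCC97H. In MHCC97H KRT19 alone was at 172.4 to 306.1 CPM, with SOX9 at 4.74 to 7.52 and EPCAM at most 0.913. The biliary gene KRT7 and the stromal gene ACTA2 are not in the table. The part of these differences in the levels described here was not tested.

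Untreated cells of the 3 lines differed in which receptor they transcribed most. Levels between genes are compared per length, as reads per kilobase of transcript in a library scaled to 10000000 reads (per kb). In bulk RNA of a culture, fewer cells with a transcript and less of it per cell cannot be told apart. In untreated Hep3B cells ERBB3 stood at 446 per kb, EGFR at 190 and ERBB2 at 112. Untreated Huh7 cells had the same order at higher levels, with ERBB3 at 649, EGFR at 355 and ERBB2 at 219. In untreated MHCC97H cells EGFR led with 267 per kb, ahead of ERBB3 with 73.5 and ERBB2 with 20.4. ERRFI1 was above every receptor in all 3 untreated libraries, with 722 per kb in Huh7, 833 in Hep3B and 1644 in MHCC97H. LRIG1 was the lowest of the 5 genes in Hep3B (99.4 per kb) and Huh7 (20.3 per kb), and second to last in MHCC97H (45.3 per kb). In untreated Hep3B cells ERBB2 exceeded LRIG1 by 1.13-fold (95% Clopper-Pearson interval 1.004 to 1.275), the closest pair among untreated cells after ERRFI1 and ERBB3 in Huh7 (1.11-fold, 1.07 to 1.16). Over the 12 libraries, 3 of 48 pairs of neighbours in this order had an interval that included 1, namely ERRFI1 and ERBB2 with compound #57 in Hep3B, ERRFI1 and ERBB3 with the combination in Hep3B, and LRIG1 and ERBB2 with AZD8055 in MHCC97H. All such intervals cover counting error only, and a level per kb also rests on the transcript chosen for its length.

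**Figure D1:**
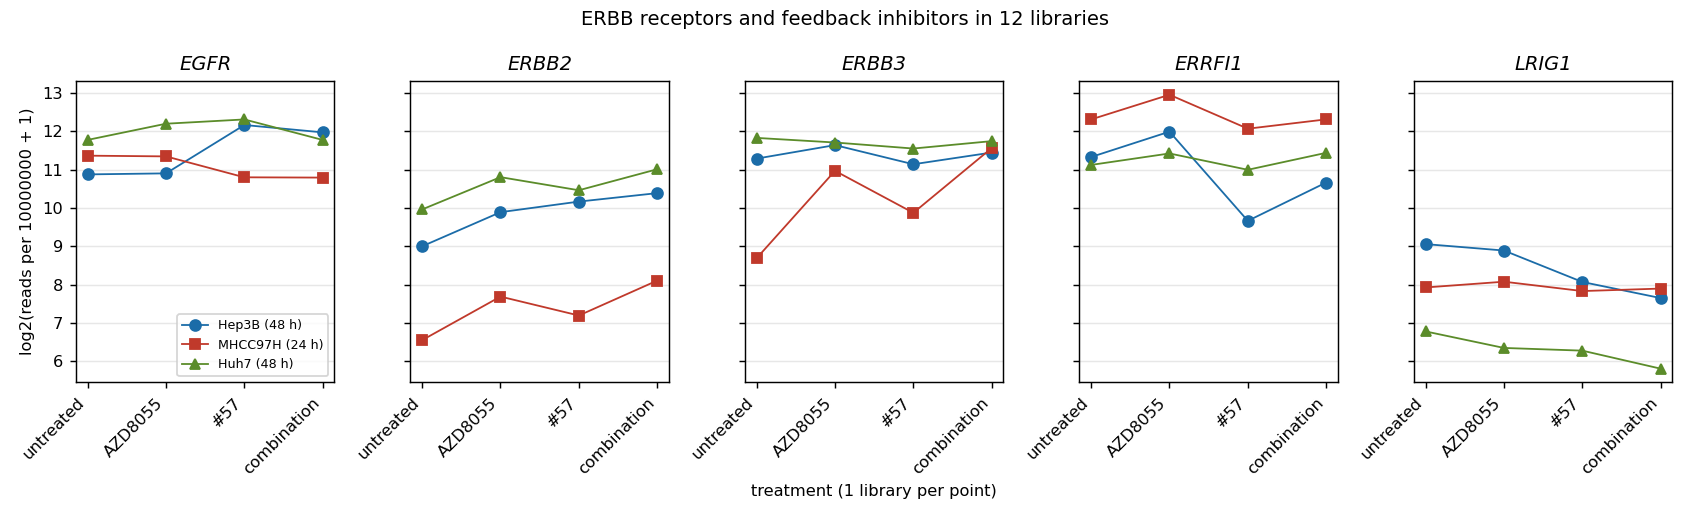
Deposited log2 values (log2 of reads per 10000000 plus 1, y axis) of the 5 genes in the 12 libraries, by treatment (x axis), with 1 point per library and lines that only join the libraries of a cell line. For ERBB2 the untreated library is the lowest within each line, and ERBB3 spans 8.69 to 11.57 in MHCC97H and little in the others. ERRFI1 and LRIG1 are lower with compound #57 in Hep3B.

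Across the 4 treatments, the lines differed in the level of most of these genes. limma (log2 values, treatment and cell line as terms, Benjamini-Hochberg adjustment over all genes) called all 5 genes between MHCC97H and Huh7, where 70.2% of all genes were called, 3 of 5 between MHCC97H and Hep3B (67.8% of all genes), and 2 of 5 between Hep3B and Huh7 (55.1%). ERBB2 was lowest in MHCC97H, with a log2 difference of -2.48 ± 0.14 (SE) from Hep3B (adjusted p = 1.91e-07), and Hep3B was lower than Huh7 by a difference of -0.70 ± 0.14 (adjusted p = 0.00206). The order of the lines for ERBB2 was therefore Huh7, Hep3B, MHCC97H, with each step beyond the residual spread. ERBB3 was lower in MHCC97H than in Hep3B (log2 difference -1.11 ± 0.40, adjusted p = 0.0316) and Huh7 (-1.43 ± 0.40, adjusted p = 0.00867), while Hep3B and Huh7 did not differ beyond the spread (-0.33 ± 0.40, adjusted p = 0.511). For EGFR, MHCC97H was below Huh7 (-0.94 ± 0.30, adjusted p = 0.0181), and Hep3B stood between them without differing from either beyond the spread (adjusted p = 0.259 against MHCC97H and 0.159 against Huh7). ERRFI1 was highest in MHCC97H, by 1.499 ± 0.270 over Hep3B (adjusted p = 0.000684) and 1.17 ± 0.27 over Huh7 (adjusted p = 0.00302). LRIG1 was lowest in Huh7, while Hep3B was higher by 2.11 ± 0.21 (adjusted p = 2.71e-05), and MHCC97H and Hep3B differed by -0.48 ± 0.21 (adjusted p = 0.0621). These means include treated cells, and the 4 treatments of a line stood in for replicates, with 1 library each. The p-values of this paragraph measure how a difference between lines varied over treatments, not over repeated cultures of a line. In the untreated libraries alone, with no test, ERBB3 in MHCC97H differed by -2.60 from Hep3B and -3.14 from Huh7, and EGFR by 0.49 and -0.41. LRIG1 in MHCC97H differed there by -1.13 from Hep3B and 1.15 from Huh7, and ERRFI1 by 0.98 and 1.19.

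ERBB2, the receptor without a known ligand, was higher in every treated library than in the untreated library of its line. In Hep3B its log2 values were 9.003 untreated, 9.89 with AZD8055, 10.17 with compound #57 and 10.39 with the combination. In MHCC97H they were 6.55, 7.69, 7.20 and 8.11 in the same order, the first of these from 121 reads. In Huh7 they were 9.97, 10.81, 10.47 and 11.01. In each line the untreated library was the lowest and the combination the highest of the 4, although the lines themselves do not overlap between MHCC97H and the others. With AZD8055 the level was 1.79-fold higher in Huh7, 1.85-fold in Hep3B and 2.20-fold in MHCC97H. With compound #57 it was 1.42-fold higher in Huh7, 2.25-fold in Hep3B and 1.56-fold in MHCC97H. Compound #57 thus came with a higher ERBB2 level than AZD8055 in Hep3B and a lower one in the other lines, a difference between lines that was not tested.

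Over the 3 lines, ERBB2 rose with AZD8055 by 0.96 ± 0.16 (SE, log2, limma, adjusted p = 0.0315; higher in 3 of 3 lines). Here 1 of the 5 genes was called, against 2.96% of all genes. The call was lost when any 1 line was left out (adjusted p = 0.366 without Huh7, 0.109 without Hep3B and 0.0725 without MHCC97H). It was also lost when only the libraries compared were fitted (adjusted p = 0.0641). Most calls of the whole table were lost too, with 0, 1, 109 and 2 genes called in these fits, in that order. The ERBB2 estimate was 1.01, 0.99 and 0.87 with a line left out, in the same order of lines. ERBB2 also rose with the combination, by 1.33 ± 0.16 (adjusted p = 0.00191; 3 of 3 lines). That call was lost without Huh7 (adjusted p = 0.0586), where limma called 11 genes of the whole table. With compound #57 the difference of 0.77 ± 0.16 did not pass (adjusted p = 0.0912; 3 of 3 lines), except without MHCC97H (0.83, adjusted p = 0.0437), where 6.74% of all genes were called (778).

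ERBB2 with the combination lay above each single drug in all 3 lines. Against AZD8055 the fold was 1.15 in Huh7, 1.34 in MHCC97H and 1.41 in Hep3B, each with a counting interval above 1 on the linear scale. Against compound #57 it was 1.46, 1.88 and 1.17 in the same order. Neither mean difference passed the test over all genes, with 0.37 ± 0.16 against AZD8055 (limma, adjusted p = 0.334) and 0.56 ± 0.16 against compound #57 (adjusted p = 0.0769).

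ERBB3, the receptor that recruits PI3K, differed between treatments mainly in MHCC97H. In MHCC97H its log2 values were 8.69 untreated, 10.97 with AZD8055, 9.88 with compound #57 and 11.57 with the combination, from 537, 2862, 1070 and 3750 reads. In Hep3B they were 11.29, 11.64, 11.14 and 11.45. In Huh7 they were 11.83, 11.71, 11.55 and 11.75. The untreated MHCC97H library was the lowest of all 12, and with the combination ERBB3 in MHCC97H reached the range of Hep3B and Huh7.

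In MHCC97H ERBB3 was 4.86-fold higher with AZD8055 (log2 difference 2.28, 95% counting interval 2.15 to 2.42), 2.27-fold higher with compound #57 and 7.34-fold higher with the combination (2.88, 2.75 to 3.01). In Hep3B the log2 differences were 0.35 with AZD8055, -0.15 with compound #57 and 0.16 with the combination. In Huh7 all 3 were below 0, at -0.12, -0.28 and -0.08. Over the lines, the mean difference was 0.84 ± 0.46 with AZD8055 (limma, adjusted p = 0.261) and 0.98 ± 0.46 with the combination (adjusted p = 0.119), and neither passed the test. Both rest on MHCC97H, since without that line they were 0.12 and 0.04.

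EGFR, the ligand-binding receptor with a full kinase, was higher with treatment in some lines and lower in others. In Hep3B its log2 values were 10.88 untreated, 10.91 with AZD8055, 12.17 with compound #57 and 11.98 with the combination. In MHCC97H they were 11.37, 11.35, 10.80 and 10.80. In Huh7 they were 11.78, 12.20, 12.31 and 11.78. The libraries with compound #57, alone or combined, were thus the highest in Hep3B and the lowest in MHCC97H.

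With compound #57 EGFR was 2.44-fold higher in Hep3B (log2 interval 1.22 to 1.36), 1.45-fold higher in Huh7 (0.48 to 0.59) and 0.676 times the untreated level in MHCC97H (-0.64 to -0.49). AZD8055 alone left EGFR within counting error of untreated cells in Hep3B and MHCC97H, at log2 differences of 0.03 and -0.02, and was 1.34-fold higher in Huh7. In Huh7, where each drug alone was above untreated, the combination was at 0.999 times the untreated level (-0.06 to 0.06). The mean differences over the lines were 0.14 ± 0.35, 0.42 ± 0.35 and 0.17 ± 0.35 with AZD8055, compound #57 and the combination, none of which passed (limma, adjusted p = 0.815, 0.505 and 0.717).

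**Figure D2:**
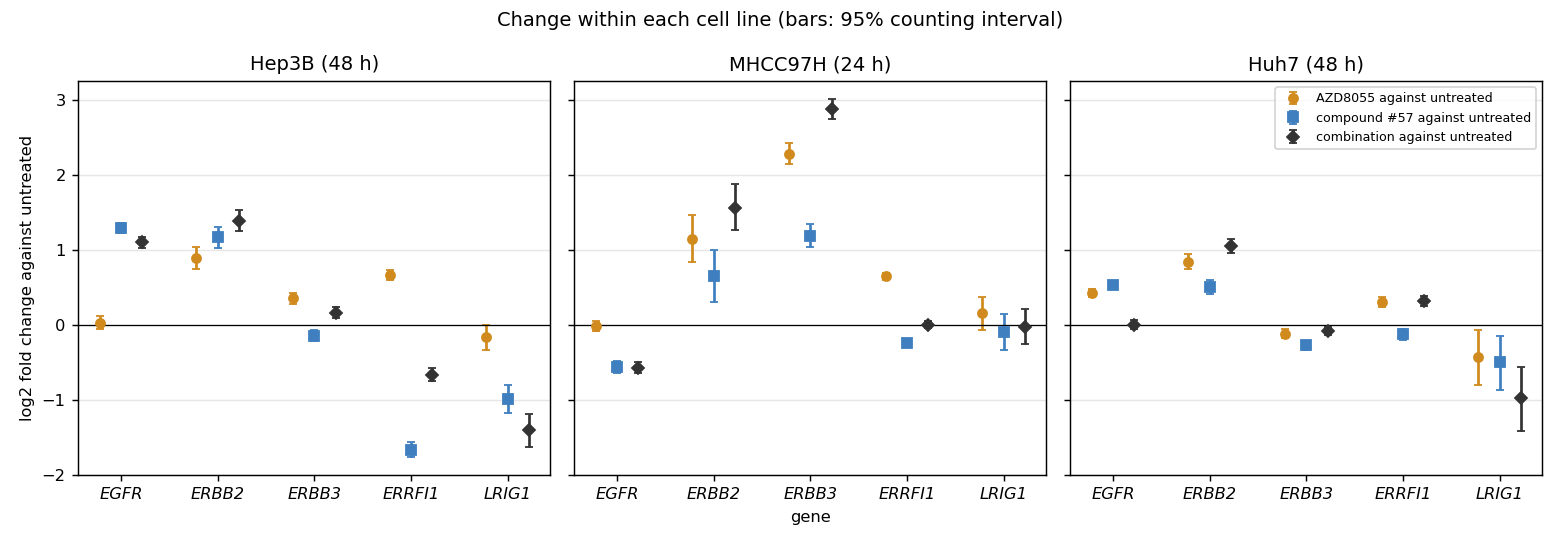
Log2 fold change (y axis) of each gene (x axis) against the untreated library of the same cell line, with 95% Clopper-Pearson intervals of the ratio of reads, which cover counting error only. ERBB2 is above 0 in all 9 treated libraries, ERBB3 reaches 2.88 in MHCC97H, and EGFR with compound #57 is at 1.29 in Hep3B and -0.56 in MHCC97H.

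The mix of receptor mRNA differed between treatments, most of all in MHCC97H. In untreated MHCC97H cells EGFR made up 74.0% of the summed per kb level of the 3 receptors and ERBB3 20.4%. With AZD8055 the shares were 39.5% and 53.7%, and with the combination they were 23.0% and 69.3%, so that the leading receptor changed from EGFR to ERBB3. With compound #57 alone EGFR and ERBB3 were close, at 47.5% and 44.1%. In Hep3B the leading receptor was ERBB3 in untreated cells (59.6%) and with AZD8055 (58.6%), and EGFR with compound #57 (41.5%, against 36.0% for ERBB3). With the combination ERBB3 led again in Hep3B, with 41.5% against 33.9% for EGFR. In Huh7 ERBB3 led in every library, from 53.1% in untreated cells to 39.4% with compound #57, while the share of ERBB2 went from 17.9% to 31.9% with the combination. The summed level was 361 per kb in untreated MHCC97H cells and 780 with the combination, 749 and 1200 in Hep3B, and 1223 and 1421 in Huh7. As deposited, the sum was higher in every line with each treatment than without. The closest case was MHCC97H, with 361 per kb untreated and 380 with compound #57. The median log2 values of these libraries were 8.37 and 8.47, and the sums were not corrected for that. This shift of the medians is larger than the log2 difference of the sums, so the direction of this case depends on the scaling.

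**Figure D3:**
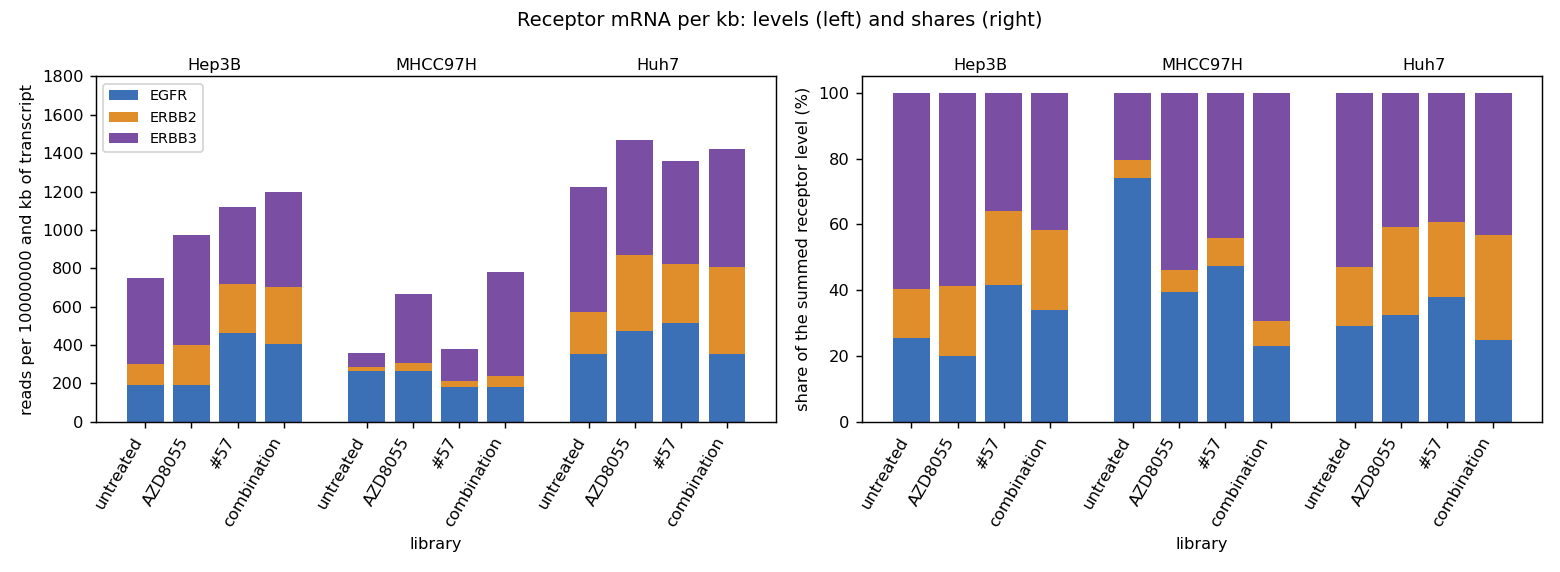
Levels of EGFR, ERBB2 and ERBB3, stacked by library (left, y axis in reads per kilobase of transcript in a library scaled to 10000000 reads), and their shares of the sum (right, y axis in percent), with 1 bar per library. In MHCC97H the EGFR share is 74.0% untreated and 23.0% with the combination, while the ERBB3 share is 20.4% and 69.3%.

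ERRFI1, the cytoplasmic inhibitor of ERBB kinases, was higher with AZD8055 and lower with compound #57 in each line, though by very different amounts. In Hep3B its log2 values were 11.33 untreated, 11.996 with AZD8055, 9.67 with compound #57 and 10.67 with the combination. In MHCC97H they were 12.31, 12.96, 12.07 and 12.32. In Huh7 they were 11.13, 11.43, 11.0002 and 11.44. In all 3 lines the library with compound #57 was the lowest, and in Hep3B and MHCC97H that with AZD8055 was the highest.

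With AZD8055 ERRFI1 was 1.23-fold higher in Huh7, 1.56-fold in MHCC97H and 1.58-fold in Hep3B, each beyond counting error. With compound #57 it was at 0.315 times the untreated level in Hep3B (log2 interval -1.76 to -1.57), 0.846 times in MHCC97H and 0.916 times in Huh7. The combination was at 0.631 times untreated in Hep3B, within counting error in MHCC97H (log2 difference 0.00) and 1.25-fold higher in Huh7. Against compound #57 alone, the combination was 2.001-fold higher in Hep3B, 1.36-fold in Huh7 and 1.18-fold in MHCC97H. No mean difference of ERRFI1 between treatments passed the test, with 0.54 ± 0.31 for AZD8055 (limma, adjusted p = 0.288) and -0.68 ± 0.31 for compound #57 (adjusted p = 0.24). The second rests on Hep3B, since without that line it was -0.18.

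LRIG1, the membrane inhibitor that promotes receptor degradation, was lower with the combination in Hep3B and Huh7. In Hep3B its log2 values were 9.06 untreated, 8.89 with AZD8055, 8.07 with compound #57 and 7.65 with the combination. In Huh7 they were 6.78, 6.35, 6.28 and 5.81, from 174, 97, 104 and 64 reads. In MHCC97H they were 7.93, 8.08, 7.84 and 7.90. The 2 lines treated for 48 h thus show the untreated library highest and the combination lowest, and in MHCC97H all 3 treated libraries lie within counting error of the untreated one.

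The combination brought LRIG1 to 0.377 times the untreated level in Hep3B (log2 interval -1.63 to -1.19) and 0.51 times in Huh7 (-1.42 to -0.56), against 0.98 times in MHCC97H (-0.26 to 0.20). Compound #57 alone brought it to 0.504 times in Hep3B and 0.706 times in Huh7, and AZD8055 alone to 0.891 times (within counting error) and 0.742 times. Over the lines, LRIG1 fell with the combination by 0.80 ± 0.24 on the log2 scale (limma, adjusted p = 0.0279; lower in 3 of 3 lines, in MHCC97H within counting error). The call was lost without Huh7 (-0.72, adjusted p = 0.195) and without Hep3B (-0.50, adjusted p = 0.212). It was also lost with voom on the whole reads (adjusted p = 0.0557) and with only the libraries compared (adjusted p = 0.114). Of the whole table, 11 genes were called without Huh7, 1797 without Hep3B, 4200 with voom and 1889 with only the libraries compared. The mean difference with compound #57 alone was -0.53 ± 0.24 (adjusted p = 0.238) and with AZD8055 -0.15 ± 0.24 (adjusted p = 0.714).

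Read as pairs of receptors and inhibitors, the lines had different profiles with the combination. In Hep3B 3 receptors were above and both inhibitors below the untreated level beyond counting error. In MHCC97H ERBB2 and ERBB3 were above, EGFR was below, and both inhibitors were within counting error. In Huh7 ERBB2 and ERRFI1 were above, ERBB3 and LRIG1 were below, and EGFR was within it. The share of all genes beyond counting error was not counted, and small differences pass at these read numbers. Some places also depend on the scaling. With quantile normalization ERBB3 in Huh7 was at a log2 difference of -0.0079 (-0.08 as deposited) and EGFR there at 0.08. ERRFI1 in MHCC97H was at -0.099 with median centring and 0.098 with quantile normalization, both outside its counting interval as deposited. ERBB2 was the only one of the 5 genes above the untreated level beyond counting error in all 9 treated libraries.

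In the test over the lines, the combination called 2 of the 5 genes (ERBB2 and LRIG1), where 36.0% of all genes were called, a share close to the background. Compound #57 called 0 of 5 with limma, with 1 of the 5 (ERBB2) at an unadjusted p under 0.05, as 21.7% of all genes were. limma called 0.00866% of all genes here. voom called 0 of the 5 and 1.07% of all genes (123). The combination against AZD8055 called 0 of 5 with limma and 0 with voom, and 2 (ERBB2 and LRIG1) had an unadjusted p under 0.05 in limma. Here 0.0% of all genes were called by limma or voom, and 14.5% (1673) had an unadjusted p under 0.05 in limma. The combination against compound #57 called 0 of 5, where limma called 4.18% of all genes and voom, also with 0 of the 5, 4.42%. At an unadjusted p under 0.05 stood 1 of the 5 (ERBB2) and 25.3% of all genes. These comparisons share libraries, since the untreated ones enter 3 of them and those of the combination also enter 3.

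**Figure D4:**
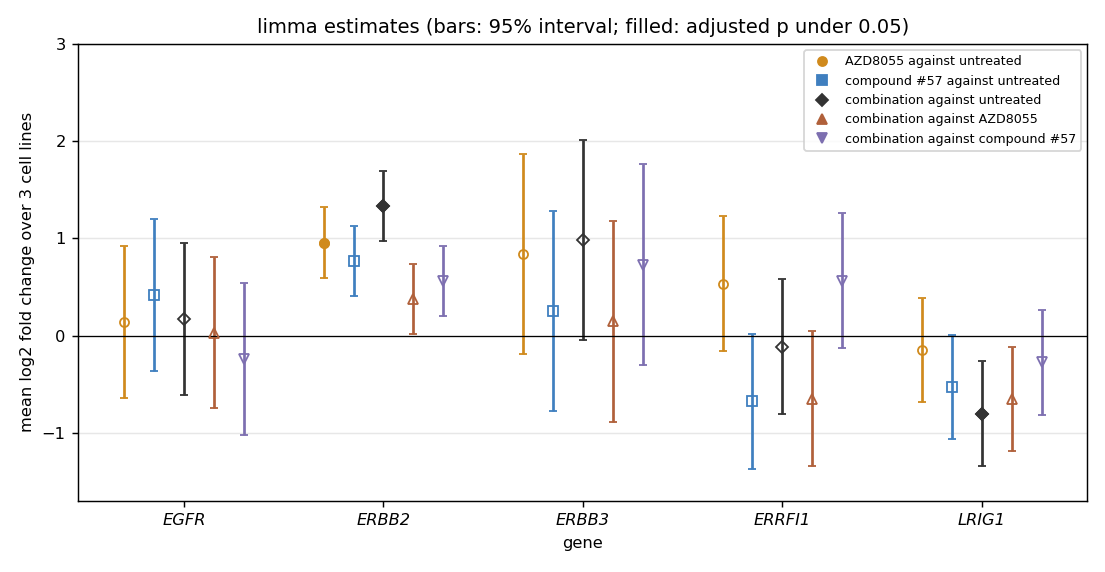
Mean log2 fold change over the 3 cell lines (y axis) of each gene (x axis) in 5 comparisons from limma, with 95% intervals from the residual spread and filled symbols where the adjusted p was under 0.05. The filled symbols are ERBB2 with AZD8055 (0.96), ERBB2 with the combination (1.33) and LRIG1 with the combination (-0.80).

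Whether the combination differed from the sum of both single drugs was tested as an interaction on the log2 scale. limma called 0 of the 5 genes, with 0 at an unadjusted p under 0.05, and 0.0% of all genes (178 genes had an unadjusted p under 0.05; voom also called 0). ERBB2 was below the sum in each line, by a difference of -0.29 in Huh7, -0.23 in MHCC97H and -0.67 in Hep3B, with a mean of -0.40 (95% interval -0.91 to 0.11, limma, adjusted p = 1.0). For EGFR the combination was -0.96 from the sum in Huh7, -0.22 in Hep3B and 0.01 in MHCC97H. LRIG1 stayed between -0.25 and -0.04 from the sum, with a mean of -0.13 (95% interval -0.89 to 0.63). For ERBB3 the values were -0.59 in MHCC97H, -0.05 in Hep3B and 0.31 in Huh7, and for ERRFI1 -0.40, 0.34 and 0.14.

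Changes of at least 2-fold were counted within each line, with no test. AZD8055 moved 0 of the 5 genes this far in Hep3B (4.63% of all genes), 2 in MHCC97H (10.2%), which were ERBB2 and ERBB3, and 0 in Huh7 (8.41%). Compound #57 moved 3 in Hep3B (12.7%), with EGFR and ERBB2 higher and ERRFI1 lower, and 1 in MHCC97H (3.96%), which was ERBB3. In Huh7 it moved 0 (5.95%). The combination moved 3 in Hep3B (17.6%), with EGFR and ERBB2 higher and LRIG1 lower, 2 in MHCC97H (16.1%), which were ERBB2 and ERBB3, and 1 in Huh7 (18.5%), which was ERBB2. LRIG1 with compound #57 in Hep3B (0.504 times) and with the combination in Huh7 (0.51 times) lay just short of this limit. These counts depend on the scaling. Both LRIG1 values passed the limit with median centring (log2 differences of -1.03 and -1.01) and quantile normalization (-1.07 and -1.41), and ERBB2 with AZD8055 in MHCC97H was under it with quantile normalization (0.87). Of 45 differences from untreated, 12 were at least 2-fold as deposited, 14 with median centring and 13 with quantile normalization. The shares of all genes were counted as deposited only, so the counts under the other scalings have no background beside them.

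Among the other genes of the pathway, 66 were listed in 7 groups and 57 are in the table. ERBB4, the fourth receptor, is not in the table, and neither are the ligands EGF, TGFA, EPGN, NRG2, NRG3 and NRG4. Of the 57 genes limma called 2 with AZD8055 (3.51%), 0 with compound #57 and 21 with the combination (36.8%), of which 14 were higher and 7 lower. These shares are near those of all genes (2.96%, 0.00866% and 36.0%). Against compound #57, the combination called 1 (IRS2), and against AZD8055 it called 0.

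Of 5 ligands in the table, 1 was called with the combination, betacellulin (BTC), at a mean log2 difference of 1.72 ± 0.52 (limma, adjusted p = 0.0289), with 11 reads untreated and 104 with the combination in Hep3B, 15 and 51 in Huh7, and 74 and 78 in MHCC97H. Median differences of the 5 were 0.83 with AZD8055, 0.34 with compound #57 and 0.71 with the combination, against 0.03, 0.05 and 0.09 over all genes. The ligands did not all move the same way. Mean differences in the same order were -0.109, -0.744 and -0.701 for EREG, -0.008, 0.335 and -0.069 for NRG1, and 0.828, -0.422 and 0.712 for HBEGF. In MHCC97H EREG went from 2600 reads to 519, 878 and 275, while with AZD8055 it was higher in Hep3B (163 to 327 reads) and Huh7 (7 to 15). Amphiregulin (AREG), a ligand of EGFR, went from 90 to 808 reads with AZD8055 in Hep3B and from 18 to 174 in Huh7, but from 238 to 60 in MHCC97H. Its mean difference of 1.48 ± 0.94 did not pass (adjusted p = 0.326). Among 4 genes of ligand release, RHBDF2, an inactive rhomboid that helps the sheddase ADAM17 mature, rose with AZD8055 (0.83 ± 0.17, adjusted p = 0.039) and with the combination (0.73 ± 0.17, adjusted p = 0.00999). Its relative RHBDF1 rose with the combination (1.41 ± 0.25, adjusted p = 0.00417). ADAM10 and ADAM17 were not called in any comparison of treatments.

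Of 12 adaptors and proximal signalling genes, 1 was called with AZD8055 and 8 with the combination, 7 higher and 1 lower. Of all genes, 2.96% were called with AZD8055 and 36.0% with the combination. IRS2, an adaptor of the insulin and IGF1 receptors, rose with AZD8055 by 2.59 ± 0.37 (limma, adjusted p = 0.0268) and with the combination by 2.42 ± 0.37 (adjusted p = 0.00301). The exchange factors SOS1 (1.09 ± 0.17, adjusted p = 0.00301) and SOS2 (0.996 ± 0.198, adjusted p = 0.00621), which load RAS, and the docking protein GAB1 (1.10 ± 0.20, adjusted p = 0.00444) rose with the combination. So did IRS1, PLCG1 and PIK3CA, with mean differences of 1.04, 0.74 and 0.46. GRB2, which links receptors to SOS, fell by 0.41 ± 0.10 (adjusted p = 0.016). PTPN11, which encodes the target of compound #57, is on this list and was not called, with log2 differences between -0.34 and 0.20 in the 9 treated libraries.

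Of 15 other negative regulators in the table, the combination called 2, both higher, and neither single drug called any, with CBLB, a ubiquitin ligase of receptors, at 0.72 ± 0.23 (limma, adjusted p = 0.0361) and RNF41, a ubiquitin ligase of ERBB3, at 0.37 ± 0.12 (adjusted p = 0.0434). The median difference of the 15 with the combination was 0.02, against 0.09 over all genes. LRIG2 and LRIG3, the relatives of LRIG1, were not called in any comparison of treatments. LRIG2 ranged between -0.07 and 0.76 in the 9 treated libraries and LRIG3 between -0.44 and 0.54. Of 3 chaperone genes, HSP90AA1, whose product keeps ERBB2 stable, fell with the combination by 0.81 ± 0.19 (adjusted p = 0.0107). Of 6 transcription factors tied to ERBB genes, FOXO3 (0.85 ± 0.17, adjusted p = 0.00603) and FOXO4 (0.98 ± 0.30, adjusted p = 0.0318) rose with the combination.

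Of 12 feedback targets of the ERK pathway (phosphatases, SPRY and SPRED proteins and early transcription factors), the combination called 5, all lower, where 36.0% of all genes were called. DUSP6, an ERK phosphatase, fell by 2.45 ± 0.70 (limma, adjusted p = 0.0235), and SPRED2, an inhibitor of RAF activation, fell by 0.72 ± 0.19 (adjusted p = 0.0173). The transcription factors ETV4, ETV5 and EGR1 had mean differences of -2.67 ± 0.65 (adjusted p = 0.0131), -2.495 ± 0.803 (adjusted p = 0.0365) and -3.51 ± 1.09 (adjusted p = 0.0324). DUSP4, another phosphatase of this list, had a mean difference in the other direction, at 1.25 (adjusted p = 0.0786), with 2.86 in Hep3B, -0.60 in MHCC97H and 1.49 in Huh7, and PHLDA1 stood at 0.40 (adjusted p = 0.452). With compound #57 alone 0 of 12 were called by limma, at a median difference of -1.81 against 0.05 over all genes. PHLDA1 was then at 1.25 in Hep3B, -0.915 in MHCC97H and 1.45 in Huh7, and DUSP4 at 0.98, -0.80 and 0.08. The other genes of this list were lower with compound #57 in each line. In Hep3B, where ERRFI1 was at its lowest, DUSP6 differed from untreated by -6.21 with compound #57 and -3.81 with the combination (985, 18 and 80 reads). In MHCC97H the differences were -1.72 and -1.25, and in Huh7 -2.16 and -2.28.

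The genes most like each of the 5 were found by the Pearson correlation over the 12 libraries. The mean of each line was taken off first, and the values only describe these libraries. For ERBB2 they were LAMB2 (r = 0.990), MAGED2 (0.988), NLRX1 (0.986), ZBTB4 (0.985) and PPFIBP2 (0.983). For ERBB3 they were UNC93B1 (0.973), GAA (0.971), ZNF518A (0.967), TOB2 (0.952) and CDON (0.945). GAA, the acid glucosidase of lysosomes, was higher by 1.61 on the log2 scale with the combination in MHCC97H and at -0.36 in Huh7, while ERBB3 was at 2.88 and -0.08. For EGFR they were SYNE1 (0.964), CHST9 (0.907), DUSP9 (0.902), AHNAK (0.902) and HPD (0.889). For ERRFI1 they were ERN1 (0.948), the adaptor SHC1 (0.947), an unnamed transcript, LPAR6 (0.920) and IER2 (0.918). For LRIG1 they were ATP2B2 (0.968), ACSL3 (0.962), LOX (0.959), ITPR1 (0.958) and HMGA2 (0.952). In MHCC97H, ATP2B2 was at a log2 difference of 0.0 and CHST9 at -0.823 with each treatment, so neither separates the treatments there. Identical values in libraries of different depth are what a gene without reads would give. Both likenesses thus rest mainly on Hep3B and Huh7. Among the 5 genes themselves the highest value was 0.648 between ERBB2 and ERBB3, followed by 0.539 between ERRFI1 and LRIG1. EGFR stood at -0.635 with ERRFI1 and -0.627 with LRIG1, and ERBB2 at -0.628 with LRIG1.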

How the data were processed

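Poly(A) RNA of 12 cultures was sequenced. Alignment by the authors was against hg38, and what they deposited is a log2 value for each gene in each library. The aligner, the counting and the normalization are not given in the sources used here. From the values, the deposited log2 scale is reads scaled to 10000000 per library plus 1, with 0 written as 0.001. In every library 100.0% of the linear values gave whole reads within 0.1, and the table took 98.6% to 99.3% of the reads. Of the 11548 genes, 18 bear date names and 305 are at 0 in a library.

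The count test used on whole reads was voom. limma 3.58.1 (lmFit, eBayes with trend, R 4.3.3) modelled treatment and cell line over all 12 libraries, with 6 residual degrees of freedom. The line itself pairs the libraries. Genes with a Benjamini-Hochberg adjusted p under 0.05 over all genes were called. Within a line, differences have no test, and Clopper-Pearson intervals at 95% (scipy 1.17.1) cover counting error only. P-values of treatments measure the spread of a difference between lines, of which MHCC97H had another exposure time. P-values between lines measure its spread over treatments, with no repeated culture. Genes named were the 5 members, the called genes of 7 lists (or, where none was called, the gene of largest mean change) and the 5 genes most like each member. Further list genes, and the marker genes with values, were named after their values were seen. The members and lists were chosen with earlier results of these data known. The alternatives were adding 10 before the log2, testing only the upper 75% of genes by mean, median centring, quantile normalization, voom, only the libraries compared, no replicate block, each line left out in turn, and untreated libraries alone for lines. The calculations were tested on simulated data.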

Additional observations from a re-analysis of the deposited data

Results flagged for a closer look

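In 6 cases a gene moved in opposite directions in 2 cell lines under the same treatment, each beyond counting error, with 1 library per condition. None of these differences between lines was tested, and the 24 h exposure of MHCC97H cannot be told apart from the line. For EGFR, the log2 change with compound #57 was higher in Hep3B than in MHCC97H by 1.85, and that with the combination by 1.67. For ERBB3, the change was higher in MHCC97H than in Huh7 by 2.40 with AZD8055, 1.46 with compound #57 and 2.96 with the combination. The Huh7 changes themselves were small, at -0.12, -0.28 and -0.08 in the same order, and the last was -0.0079 with quantile normalization. For ERRFI1, the change with the combination was higher in Huh7 than in Hep3B by 0.98.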

How the results depend on the processing

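Median centring, quantile normalization, 10 added before the log2 and the 75% of genes with the highest mean changed no count of genes called among the 5. With AZD8055 against untreated (1 called) the count was 0 with only the libraries compared, 0 with no replicate block and 0 without any 1 line (range 0 to 0). Of the whole table, AZD8055 called 342 genes, but 2 with only the libraries compared. Without Huh7, Hep3B and MHCC97H it called 0, 1 and 109 genes. With compound #57 (0 called) it was between 0 and 1, the 1 being ERBB2 without MHCC97H. Over all genes, compound #57 called 1 gene, 123 with voom and 778 without MHCC97H. With the combination against untreated (2 called) it was 1 with voom, 1 with only the libraries compared, 0 with no replicate block and between 0 and 2 when a line was left out, with 0 without Huh7 and 1 without Hep3B. Without the block for cell line, limma called 0 genes of the whole table in each comparison of treatments, with 1268 at an unadjusted p under 0.05 for the combination against untreated.

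Of the estimates over lines, those that were not called changed sign in 12 cases, and the cause was not tested. Within a line, another 8 differences changed sign with median centring or quantile normalization, all of them at most 0.0359 in size as deposited and at most 0.0994 after. When a line was left out, EGFR ranged from -0.0153 (without Hep3B) to 0.91 with compound #57, from -0.29 (without Hep3B) to 0.55 with the combination, and from -0.49 (without Hep3B) to 0.32 for the combination against AZD8055, which was -0.0082 with median centring. ERBB3 ranged from -0.21 (without MHCC97H) to 0.52 with compound #57, from -0.079 (without MHCC97H) to 0.32 for the combination against AZD8055, and from -0.32 to 0.13 (without MHCC97H) for the interaction. ERRFI1 ranged from -0.33 to 0.16 (without Hep3B) with the combination and from -0.13 (without Hep3B) to 0.24 for the interaction, with -0.0313 without Huh7. In untreated cells alone, EGFR was higher in MHCC97H than in Hep3B by 0.49 and ERRFI1 higher in Hep3B than in Huh7 by 0.21, while for ERBB3 in MHCC97H the difference was -2.60 from Hep3B and -3.14 from Huh7. Depth limits LRIG1 in Huh7 (64 to 174 reads) and ERBB2 in untreated MHCC97H cells (121 reads).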
